A study of Homo sapiens with 6 samples.

Results

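Mitophagy receptors and core autophagy genes were followed in 786-O cells in which PLOD2 was targeted with CRISPR/Cas9. The set holds 9 genes of the 58395 in the deposited table, taken by gene symbol: BNIP3, BNIP3L, FUNDC1, PINK1, SQSTM1, OPTN, MAP1LC3B, GABARAPL1 and ULK1. Each of the 9 was found once. 786-O is an established human cell line derived from clear cell renal carcinoma. It carries no functional VHL, and of the hypoxia-inducible factors its protein is known to be HIF-2α, not HIF-1α. PLOD2 encodes lysyl hydroxylase 2, which modifies collagen lysines. RNA was sequenced from 3 libraries labelled sgControl and 3 labelled sgPLOD2, names that mark a control guide and a guide against PLOD2. Guide sequences were not used here, and the labels do not state whether the targeted cells were a pool or a single clone. Nor do they state that the 3 libraries of a group came from separate cultures, so p-values here reflect only how far these libraries scatter, and that scatter may be technical.

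Mitophagy is the removal of mitochondria by autophagy. BNIP3, BNIP3L (also called NIX) and FUNDC1 sit in the outer mitochondrial membrane and bind ATG8 proteins directly, and BNIP3 and BNIP3L are known targets of hypoxia-inducible factors. PINK1 is a kinase that accumulates on damaged mitochondria and phosphorylates ubiquitin, after which soluble receptors such as OPTN and SQSTM1 (p62) link ubiquitin-coated cargo to ATG8 proteins. ULK1 is the kinase that starts autophagosome formation, and MAP1LC3B and GABARAPL1 are ATG8 proteins that are conjugated to the growing membrane.

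Transcripts of 3 of the 9 genes rose in the sgPLOD2 libraries, those of 2 fell, and 4 did not pass the test. BNIP3, BNIP3L and PINK1 were higher by 59.7% to 94.5% in mean FPKM (fragments per kilobase of transcript, relative to all mapped fragments). SQSTM1 fell by 45.9% and ULK1 fell by 39.5%. FUNDC1, OPTN, MAP1LC3B and GABARAPL1 differed by no more than their spread between libraries. The test was limma on log2(FPKM + 1) over 10469 genes whose mean reached 1 FPKM, adjusted by Benjamini-Hochberg and called at 0.05, and all 9 genes passed that filter. Fold changes below are given on that scale as sgPLOD2 minus sgControl, with the standard error (SE) of the fit. The call rate in this comparison was high: 52.9% of all tested genes were called (29.5% higher and 23.5% lower), and 5 of 9 is close to that share. In the same 5 genes the libraries of the groups did not overlap, which was so for 62.7% of all tested genes (34.7% with all sgPLOD2 libraries above and 28.0% with all below). The median fold change was 0.14 over the 9 genes and 0.06 over all tested genes, while the median size regardless of sign was 0.56 against 0.37. These are bulk libraries, in which fewer cells of a type and less RNA per cell cannot be told apart.

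PLOD2 transcripts were at 26.8, 25.7 and 21.5 FPKM in sgControl replicates 1 to 3 and at 5.98, 10.1 and 6.64 FPKM in sgPLOD2 replicates 1 to 3. Every library labelled sgPLOD2 was below every library labelled sgControl, and 30.7% of the mean level remained. The fold change was -1.61 ± 0.18 (SE; limma adjusted p = 0.000509), and the exact 2-sided permutation p of 0.1 is the smallest that 3 against 3 libraries allow. Of 8 markers listed for the line, PAX8, KRT8, KRT18, VIM and EPAS1 were well detected, PAX2 lay between 1.17 and 2.06 FPKM, and NDUFA4L2 and CA9, usual markers of clear cell carcinoma, stayed at or under 0.368 FPKM in all libraries. Summed markers of leukocytes (4 genes), endothelium (3 genes) and fibroblasts (4 genes) reached at most 0.238, 0.00480 and 0.502 FPKM in any library, and CD3E, VWF and DCN were listed at 0 in all 6. Summed FPKM was 229485 to 268612 across the libraries, and the deposited mean counts implied depths of 131 M to 147 M reads.

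**Figure D1:**
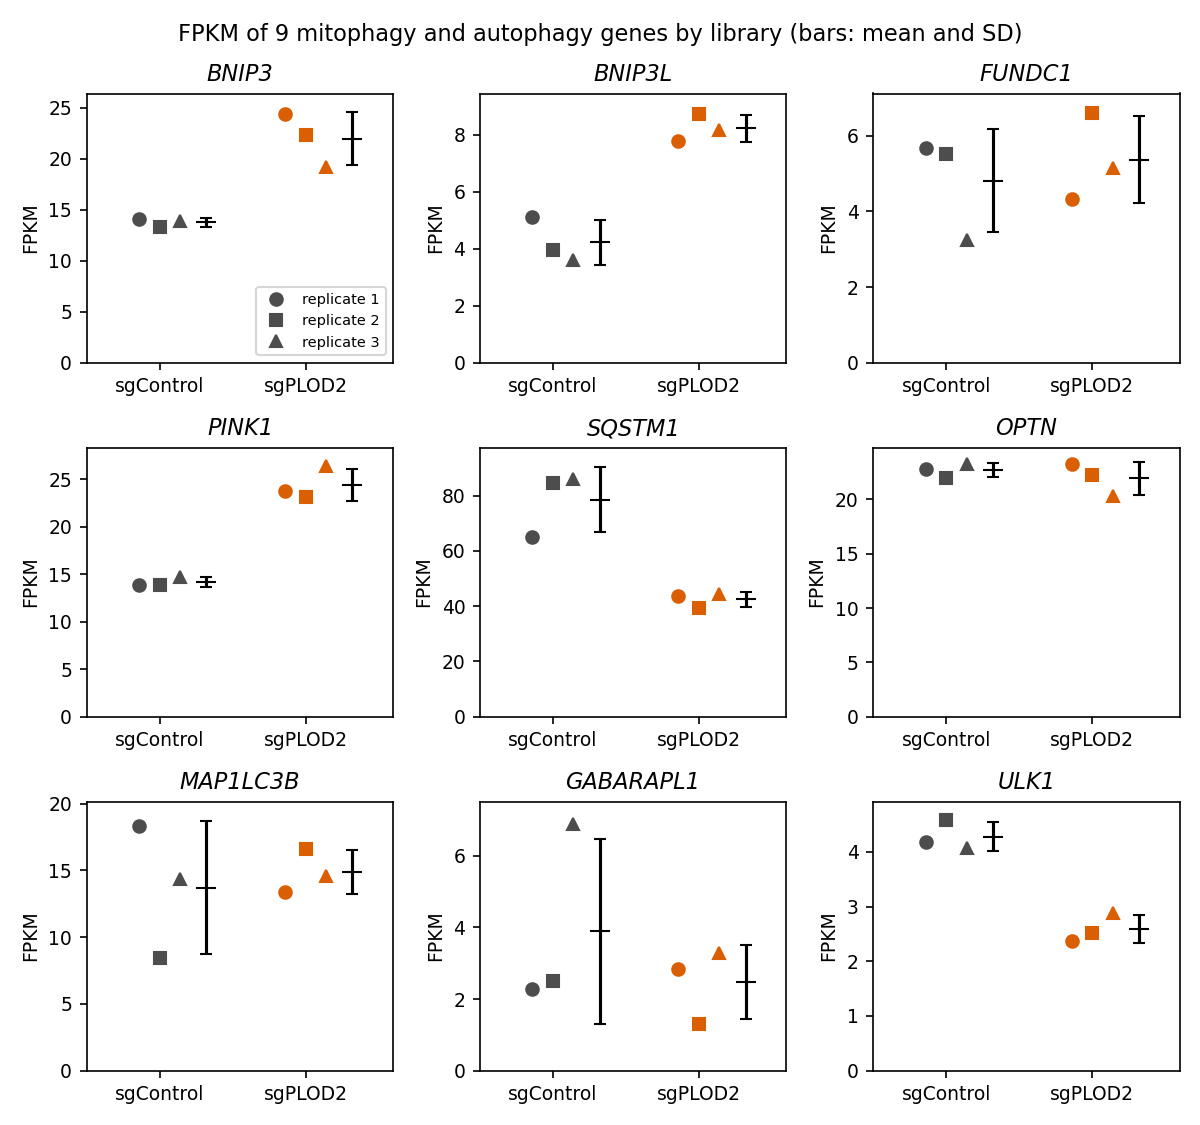
FPKM of the 9 genes, 1 panel per gene with its own linear axis from 0. Points are the 3 sgControl and 3 sgPLOD2 libraries and bars are the mean and SD. Points of the 2 groups do not overlap for BNIP3, BNIP3L, PINK1, SQSTM1 and ULK1, and overlap for the other 4 genes.

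Among the receptors anchored in the mitochondrial membrane, BNIP3 and BNIP3L rose and FUNDC1 did not pass the test. BNIP3 (ENSG00000176171, chromosome 10, 131966455 to 131982013, minus strand of GRCh38) had 14.1, 13.3 and 13.9 FPKM in the sgControl libraries and 24.4, 22.3 and 19.2 FPKM in the sgPLOD2 libraries. The lowest sgPLOD2 library was above the highest sgControl library. The means were 13.7 ± 0.43 and 22.0 ± 2.60 FPKM (SD, n = 3 each), a fold change of 0.63 ± 0.10 (SE; limma adjusted p = 0.00214). BNIP3 shares no annotated exon bases with another gene.

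The stretch upstream of BNIP3 is shown because it holds the only match to ACGTG among those of the 9 genes that had a promoter entry. ACGTG is a form of the core bound by hypoxia-inducible factors, and other forms were not searched. The targeted gene PLOD2 also held ACGTG, at positions -200 and -146. Promoter windows of 300 bases, from 250 before to 50 after each annotated start, were taken from RefSeq (GRCh38.p14) and 7 of the 9 genes had an entry, with 10 windows in all. The line below gives 94 bases, chr10:131982014-131982107 on the minus strand, from position -184 to position -91 relative to the RefSeq start. Capitals mark the palindrome CACGTG, which holds ACGTG on both strands and is also the E-box bound by MiT/TFE factors.
BNIP3: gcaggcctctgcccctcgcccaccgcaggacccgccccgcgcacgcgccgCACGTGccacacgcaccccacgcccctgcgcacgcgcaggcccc
Searched on both strands, ACGTG was present in 21.4% of all 35116 windows of that length and CACGTG in 7.26%. The longer CLEAR core TCACGTGA (0.980% of windows) was in none of the 7 genes. The antioxidant element core TGACNNNGC (13.3% of windows) was in MAP1LC3B. These matches are letters in a window and no binding was measured.

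BNIP3L (ENSG00000104765, chromosome 8, 26383054 to 26505636, plus strand) had 5.12, 3.94 and 3.61 FPKM in the sgControl libraries and 7.77, 8.73 and 8.16 FPKM in the sgPLOD2 libraries. The groups did not overlap, and BNIP3L had the largest relative rise of the 9 genes. Its mean went from 4.22 ± 0.80 to 8.22 ± 0.48 FPKM (SD, n = 3 each), with a fold change of 0.83 ± 0.12 (SE; limma adjusted p = 0.00155). The antisense neighbour PNMA2 overlaps 330 exon bases of BNIP3L (7.66% of them) and rose from 0.404 to 6.75 FPKM (limma adjusted p = 4.47e-06). No strand setting of the counting is recorded, so the part of that rise in the BNIP3L value was not tested.

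FUNDC1 (ENSG00000069509, chromosome X, 44523639 to 44542859, minus strand) had 5.68, 5.52 and 3.25 FPKM in the sgControl libraries and 4.33, 6.61 and 5.16 FPKM in the sgPLOD2 libraries. The sgControl libraries spanned most of the range of the sgPLOD2 libraries. The fold change was 0.14 ± 0.21 (SE; limma adjusted p = 0.583), and its sign turned when sgControl replicate 3, the lowest library, was left out (-0.067).

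Summed over BNIP3, BNIP3L and FUNDC1, receptor transcripts came to 24.9, 22.7 and 20.7 FPKM in the sgControl libraries and 36.5, 37.7 and 32.5 FPKM in the sgPLOD2 libraries. All sgPLOD2 sums were above all sgControl sums. BNIP3 was the most abundant of the 3 in every library, with 60.6% ± 5.51 of the sum in sgControl and 61.7% ± 4.42 in sgPLOD2 (SD, n = 3 each). BNIP3L made up 17.3% to 20.6% in sgControl and 21.3% to 25.1% in sgPLOD2. The mean share of FUNDC1 was 20.9% ± 4.62 and 15.1% ± 2.91.

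PINK1 (ENSG00000158828, chromosome 1, 20633458 to 20651511, plus strand) had 13.9, 13.9 and 14.8 FPKM in the sgControl libraries and 23.8, 23.1 and 26.4 FPKM in the sgPLOD2 libraries. Values within a group were close, and the groups were apart. The mean went from 14.2 ± 0.50 to 24.4 ± 1.73 FPKM (SD, n = 3 each), a rise of 72.2% and a fold change of 0.74 ± 0.08 (SE; limma adjusted p = 0.000498). The antisense gene PINK1-AS overlaps 1907 exon bases, 39.4% of those of PINK1, and rose from 6.79 ± 0.69 to 9.08 ± 0.21 FPKM (limma adjusted p = 0.0126). Since no strand setting is recorded, whether reads of PINK1-AS entered the PINK1 value was not tested.

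In the list of 10 genes of the PINK1 pathway, 6 were tested, 1 rose, 0 fell and 5 were not called. The gene that rose was MFN1, a mitofusin, from 2.35 ± 0.57 to 4.24 ± 0.29 FPKM (0.66, limma adjusted p = 0.00599, which became 0.0851 with each chromosome's median fold change removed). TBK1, the kinase that phosphorylates OPTN and SQSTM1, had 1.71 ± 0.53 and 1.54 ± 0.11 FPKM (limma adjusted p = 0.669).

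SQSTM1 (ENSG00000161011, chromosome 5, 179806398 to 179838078, plus strand) was the most abundant of the 9 genes. It had 64.9, 84.6 and 85.8 FPKM in the sgControl libraries and 43.8, 39.3 and 44.2 FPKM in the sgPLOD2 libraries. The groups did not overlap, with sgControl replicate 1 nearest to the sgPLOD2 libraries. The mean went from 78.5 ± 11.8 to 42.4 ± 2.76 FPKM (SD, n = 3 each), a fold change of -0.86 ± 0.13 (SE; limma adjusted p = 0.00137). MGAT4B, on the opposite strand with 105 shared exon bases (1.37%), fell from 51.8 to 36.7 FPKM (limma adjusted p = 0.00232), and MRNIP, which shares 1582 exon bases (20.7%), had 1.24 and 1.09 FPKM and was not called.

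OPTN (ENSG00000123240, chromosome 10, 13099449 to 13138308, plus strand) had 22.8, 22.0 and 23.3 FPKM in the sgControl libraries and 23.3, 22.3 and 20.3 FPKM in the sgPLOD2 libraries. The groups overlapped closely. The fold change of -0.05 ± 0.08 (SE; limma adjusted p = 0.652) was among the smaller ones, at percentile 7.18 of the sizes over all tested genes.

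The ratios of SQSTM1 to OPTN and to PINK1 did not overlap between the groups. For PINK1 this follows from the values above, because SQSTM1 was lower and PINK1 higher in every sgPLOD2 library than in any sgControl library. SQSTM1 had 3.46 ± 0.54 times the FPKM of OPTN in sgControl and 1.94 ± 0.21 times in sgPLOD2. Relative to PINK1, SQSTM1 was at 4.68, 6.09 and 5.82 in the sgControl libraries and at 1.84, 1.70 and 1.68 in the sgPLOD2 libraries. Within the summed FPKM of 8 soluble cargo receptors, SQSTM1 held 50.8% ± 3.93 in sgControl and 33.8% ± 2.47 in sgPLOD2.

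Of the 6 other cargo receptors, 3 rose, 0 fell and 3 were not called. TAX1BP1, a ubiquitin-binding receptor, rose from 3.60 ± 0.24 to 7.62 ± 0.37 FPKM (0.91, limma adjusted p = 0.000258). WDFY3 (ALFY), a scaffold for protein aggregates, rose from 0.625 ± 0.13 to 2.52 ± 0.34 FPKM (1.11, limma adjusted p = 0.000258, and 0.62 after adjustment for GC content and length). NBR1, a relative of SQSTM1, rose from 4.27 ± 0.62 to 6.16 ± 0.44 FPKM (0.45, limma adjusted p = 0.0143, up to 0.298 under the alternatives run). Of the 5 other mitophagy receptors, NIPSNAP2 (0.94, limma adjusted p = 0.000727) and BCL2L13 (0.61, limma adjusted p = 0.0151) rose and 3 were not called. The BCL2L13 call was lost after adjustment for GC content and length (0.0842).

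**Figure D2:**
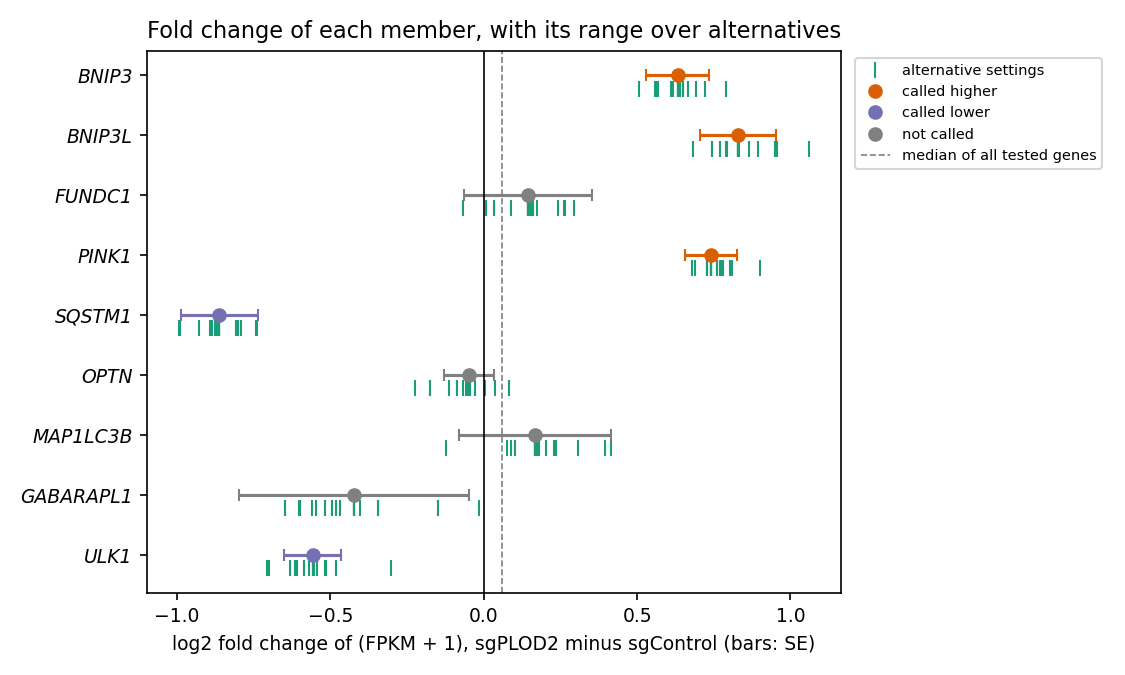
Log2 fold change of each of the 9 genes, sgPLOD2 minus sgControl, on the log2(FPKM + 1) scale. The marked point is the value in the text with its SE as a bar, and the small ticks below it are the values under the alternatives that were run. The ranges of BNIP3, BNIP3L, PINK1, SQSTM1 and ULK1 stay on 1 side of 0, as does that of GABARAPL1, which reaches -0.017, and those of FUNDC1, OPTN and MAP1LC3B cross 0.

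MAP1LC3B (ENSG00000140941, chromosome 16, 87383953 to 87404779, plus strand) had 18.3, 8.43 and 14.4 FPKM in the sgControl libraries and 13.4, 16.6 and 14.6 FPKM in the sgPLOD2 libraries. The sgControl libraries held both the highest and the lowest value. The fold change was 0.17 ± 0.25 (SE; limma adjusted p = 0.597), and it turned to -0.12 without sgControl replicate 2, the lowest library. The near-identical copy MAP1LC3B2, between which and MAP1LC3B reads may have been split, had 0.907 and 1.16 FPKM and was not called.

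GABARAPL1 (ENSG00000139112, chromosome 12, 10212458 to 10223128, plus strand) had 2.28, 2.51 and 6.88 FPKM in the sgControl libraries and 2.83, 1.3 and 3.28 FPKM in the sgPLOD2 libraries. The third sgControl library stood well above the other 5, and the second sgPLOD2 library was the lowest. The fold change of -0.42 ± 0.38 (SE; limma adjusted p = 0.372) was -0.017 without sgControl replicate 3 and -0.15 without sgPLOD2 replicate 2.

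The other ATG8 genes set these values in context. GABARAP held 53.8% ± 5.22 of the summed ATG8 FPKM in sgControl and 55.4% ± 4.41 in sgPLOD2, and GABARAP itself had 36.7 ± 1.57 and 34.8 ± 5.68 FPKM (limma adjusted p = 0.575). GABARAPL2 fell from 13.5 ± 0.84 to 9.22 ± 0.71 FPKM (-0.50, limma adjusted p = 0.00356), which was no longer called with chromosome medians removed (0.0546). Its share of the ATG8 sum was 18.2% to 20.9% in sgControl and 13.5% to 16.2% in sgPLOD2. MAP1LC3A was listed at 0 in all 6 libraries. The ATG8 sum was 73.7, 60.8 and 71.8 FPKM in the sgControl libraries and 67.6, 56.8 and 63.1 FPKM in the sgPLOD2 libraries, with overlap between the groups.

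**Figure D3:**
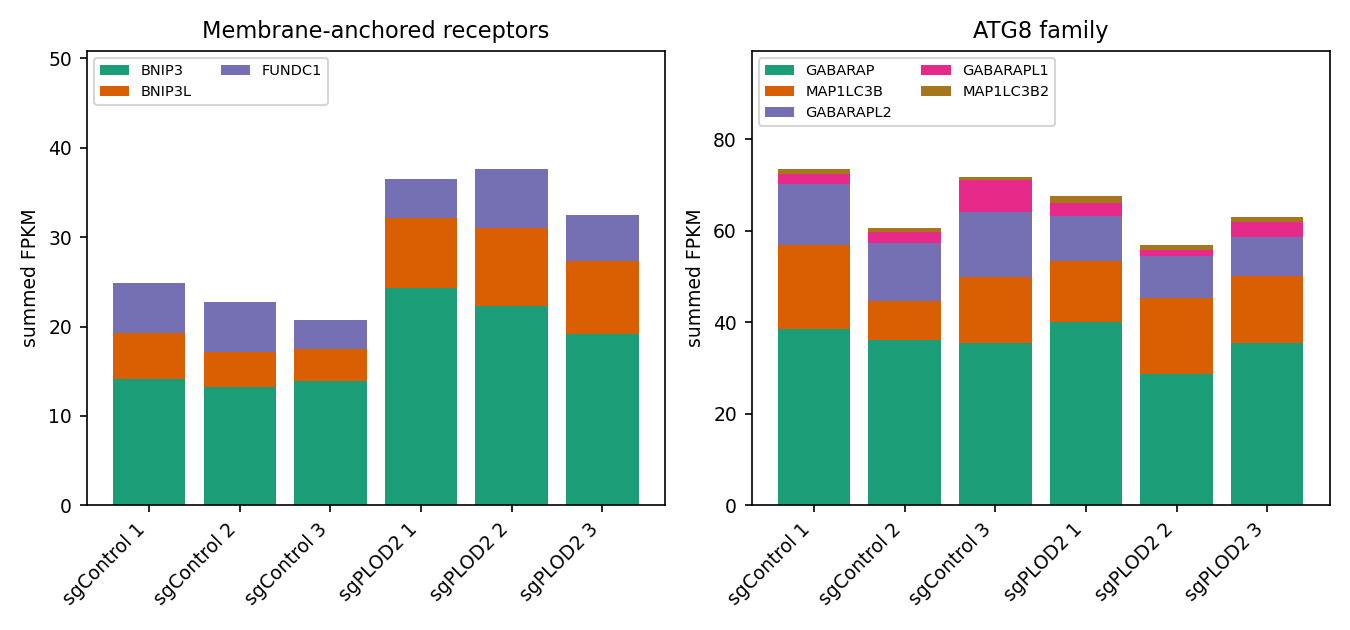
Summed FPKM per library, stacked by gene, for the 3 membrane-anchored receptors and for the ATG8 genes, with linear axes from 0. Receptor sums are 20.7 to 24.9 in sgControl and 32.5 to 37.7 in sgPLOD2, whereas ATG8 sums overlap between the groups.

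ULK1 (ENSG00000177169, chromosome 12, 131894622 to 131923150, plus strand) had 4.18, 4.57 and 4.07 FPKM in the sgControl libraries and 2.38, 2.51 and 2.88 FPKM in the sgPLOD2 libraries. The groups did not overlap. Its mean went from 4.28 ± 0.26 to 2.59 ± 0.26 FPKM (SD, n = 3 each), a fold change of -0.56 ± 0.09 (SE; limma adjusted p = 0.00255). The size was smaller, -0.30 with an adjusted p of 0.0356, after adjustment for GC content and length.

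The partners of ULK1 moved in different directions. ATG101, which stabilises the complex, fell from 28.7 ± 1.96 to 17.4 ± 1.15 FPKM (-0.69, limma adjusted p = 0.000851, and -0.39 after adjustment for GC content and length). RB1CC1 (FIP200), its scaffold, rose from 1.29 ± 0.33 to 3.02 ± 0.32 FPKM (0.82, limma adjusted p = 0.00203). ATG13 had 6.89 ± 1.89 and 8.93 ± 0.76 FPKM (limma adjusted p = 0.139). Of the 4 genes in this list, 3 were tested, with 1 higher, 1 lower and 1 not called.

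In the order of mean FPKM, which is per length, SQSTM1 led in both groups, at 78.5 in sgControl and 42.4 in sgPLOD2. OPTN at 22.7 came next in sgControl, ahead of PINK1 at 14.2 and of BNIP3 and MAP1LC3B at 13.7 each. The last 3 did not differ beyond their spread. FUNDC1 at 4.82, ULK1 at 4.28, BNIP3L at 4.22 and GABARAPL1 at 3.89 followed, again within their spread. In sgPLOD2, PINK1 at 24.4, BNIP3 at 22.0 and OPTN at 22.0 lay together below SQSTM1, MAP1LC3B was at 14.9, and BNIP3L at 8.22 lay above FUNDC1 at 5.37. ULK1 at 2.59 and GABARAPL1 at 2.47 were lowest.

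Over the wider pathway, 14 lists with 124 other genes were read from the same fit. Of these, 111 were tested, 26 rose, 25 fell and 60 were not called, or 45.9% called against 52.9% of all tested genes. The median fold change was 0.04. Some called genes described below kept their calls but were smaller by over 1.5 times under an alternative. With chromosome medians removed, ATG7 was at 0.30, ATG2B at 0.42, ATP6V1A at 0.51 and PIK3R4 at 0.52. After adjustment for GC content and length, TFE3 was at -0.25 and BCL2L1 at -0.32.

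In the class III PI3K complex, which makes the lipid that marks new autophagosomes, 7 of 8 genes were tested, 5 rose and 1 fell. PIK3R4 rose from 3.07 ± 0.23 to 6.32 ± 0.41 FPKM (0.85, limma adjusted p = 0.000404). ATG14 (0.48), UVRAG (0.34), BECN1 (0.33) and AMBRA1 (0.33) also rose, and NRBF2 fell by 0.37 on the log2 scale. Each of these 5 calls was lost under at least 1 alternative, and ATG14 came to -0.058 with chromosome medians removed. BECN1, AMBRA1 and NRBF2 were named after their values were seen.

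Of 9 genes of phagophore growth, ATG2B, a lipid transfer protein, rose from 0.378 ± 0.024 to 1.68 ± 0.30 FPKM (0.96, limma adjusted p = 0.000369). WIPI1, a lipid-binding adaptor, fell from 9.07 ± 0.96 to 5.11 ± 0.12 FPKM (-0.72, limma adjusted p = 0.00104), and 7 were not called. In the ATG8 conjugation machinery, 9 of 10 genes were tested, 2 rose and 3 fell. ATG7, the activating enzyme, rose from 2.73 ± 0.16 to 4.79 ± 0.23 FPKM (0.63, limma adjusted p = 0.000971). The proteases ATG4D (-0.60) and ATG4B (-0.36) fell, but after adjustment for GC content and length ATG4D was at -0.044 (adjusted p = 0.770). ATG4C (0.54) rose and ATG12 (-0.32) fell, both named after their values were seen. The ATG4B and ATG12 calls were lost under some alternatives, with adjusted p up to 0.0633 and 0.106.

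**Figure D4:**
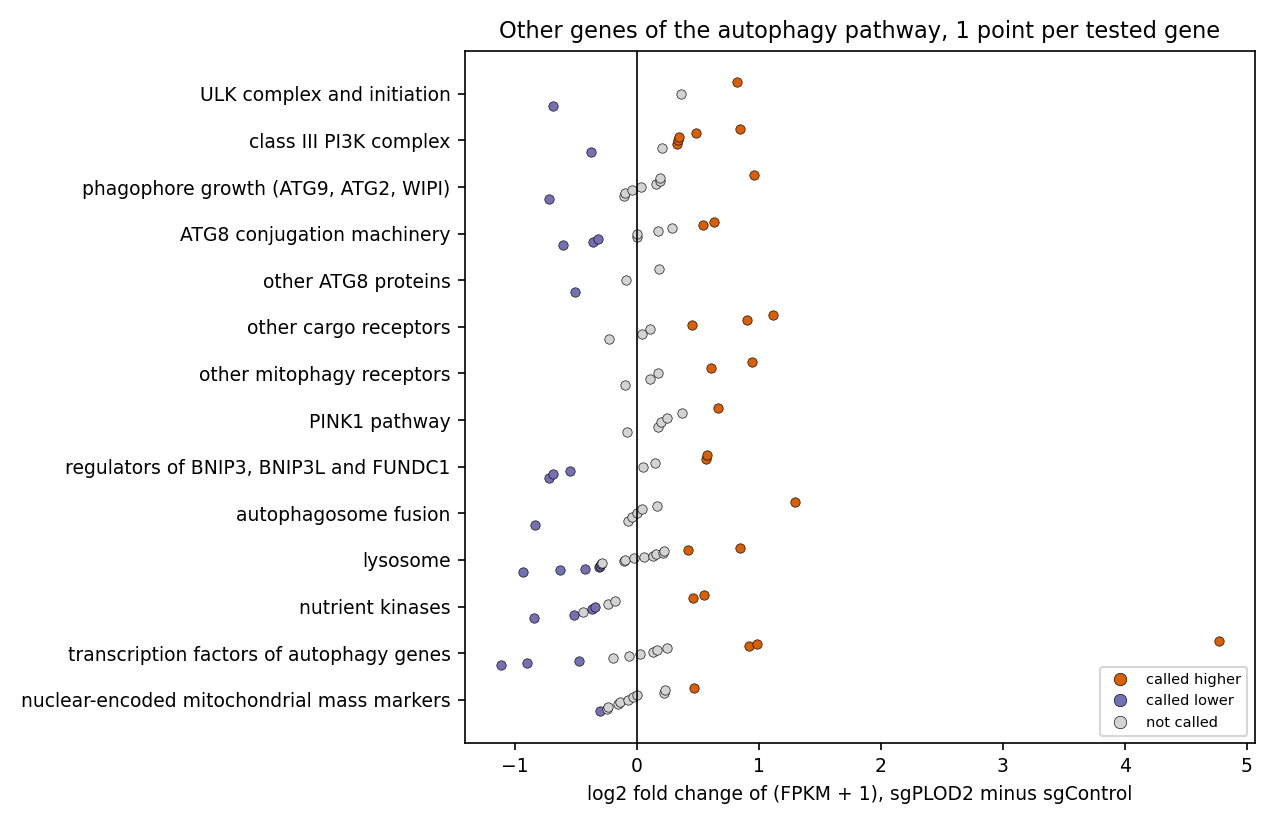
Log2 fold change of (FPKM + 1), sgPLOD2 minus sgControl, of the tested genes in each of the 14 lists, 1 point per gene. Called genes lie on both sides of 0 in 10 of the lists.

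Among 7 regulators of BNIP3, BNIP3L and FUNDC1, 2 rose, 3 fell and 2 were not called. FBXL4, part of the ubiquitin ligase that limits BNIP3 and BNIP3L protein, rose from 0.764 ± 0.16 to 1.6 ± 0.19 FPKM (0.56, limma adjusted p = 0.00338, and 0.114 with chromosome medians removed). Its cofactor PPTC7 had 2.96 ± 0.28 and 3.10 ± 0.23 FPKM and was not called (limma adjusted p = 0.674). For FUNDC1, the phosphatase PGAM5 fell from 33.6 ± 1.38 to 20.6 ± 3.16 FPKM (-0.69, limma adjusted p = 0.00294). The kinase SRC fell from 17.2 ± 0.63 to 10.0 ± 0.37 FPKM (-0.72, limma adjusted p = 0.000406), and BCL2L1, which binds PGAM5, fell from 58.8 ± 0.29 to 39.9 ± 0.76 FPKM (-0.55, limma adjusted p = 0.000787). CSNK2A1 rose (0.57, limma adjusted p = 0.00651) but was at -0.0061 after adjustment for GC content and length, and it was named after its values were seen.

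Of the 12 transcription factors listed for autophagy genes, 3 rose, 3 fell and 6 were not called. HIF1A had 0.420 ± 0.12 FPKM in the sgControl group and 37.7 ± 1.84 FPKM in the sgPLOD2 group (4.77, limma adjusted p = 9.93e-07), and EPAS1, which encodes HIF-2α, rose from 12.0 ± 1.18 to 24.6 ± 1.49 FPKM (0.98, limma adjusted p = 0.000282). BNIP3 and BNIP3L are known targets of hypoxia-inducible factors, though not necessarily of each factor. The part of HIF1A or EPAS1 in the rise of BNIP3 and BNIP3L was not tested. FOXO3, a known activator of BNIP3 and BNIP3L, had 2.88 ± 0.47 and 6.62 ± 2.46 FPKM (0.92, limma adjusted p = 0.0192, up to 0.1 under the alternatives run). NFE2L2 (NRF2), a known activator of SQSTM1, had 7.14 ± 3.03 and 8.26 ± 0.69 FPKM (0.24, limma adjusted p = 0.408, and 0.53 with an adjusted p of 0.00471 without sgControl replicate 1). KEAP1, its inhibitor, had 34.7 ± 2.67 and 30.2 ± 2.89 FPKM (limma adjusted p = 0.151).

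ATF4, the factor of the amino acid response, fell from 219 ± 13 to 101 ± 7.74 FPKM (-1.11, limma adjusted p = 0.000124), and its partner DDIT3 fell from 4.94 ± 1.21 to 2.16 ± 0.43 FPKM (-0.90, limma adjusted p = 0.00470). TFE3, a lysosomal gene activator, fell from 33.8 ± 0.82 to 24.0 ± 1.21 FPKM (-0.48, limma adjusted p = 0.00207). FOXO3, DDIT3 and TFE3 were named after their values were seen. HIF1A went from near absence to a high level, in a line known for HIF-2α and not HIF-1α protein. Protein was not measured here. HIF1A, ATG14 and ATG2B lie on chromosome 14, whose 344 tested genes had a median fold change of 0.54, against 0.06 over all tested genes. The fold change of HIF1A was lowest at 4.23 under the alternatives run. Whether the HIF1A change belongs with that of its chromosome was not tested. In this design, the lower PLOD2 transcript level and any other difference between the cells of the 2 groups cannot be told apart.

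Of the lysosomal genes, 2 of 17 rose, 6 fell and 9 were not called. LAMP1, a membrane glycoprotein, fell from 47.9 ± 4.53 to 24.4 ± 0.53 FPKM (-0.94, limma adjusted p = 0.000254), while LAMP2 rose from 24.1 ± 1.65 to 32.6 ± 2.30 FPKM (0.42, limma adjusted p = 0.00761). ATP6V1A, a subunit of the proton pump, rose from 3.32 ± 0.13 to 6.80 ± 0.69 FPKM (0.85, limma adjusted p = 0.000494). The proteases CTSL (-0.63) and CTSD (-0.30), the hydrolases HEXA (-0.31) and GLA (-0.30) and the pump subunit ATP6V0D1 (-0.43) also fell and were named after their values were seen. Of these, CTSD, HEXA, GLA and ATP6V0D1 lost their calls under some alternatives, and CTSD was at 0.16 after adjustment for GC content and length. The LAMP2 call was lost after adjustment for GC content and length (0.0700). In autophagosome fusion, 7 of 8 genes were tested: EPG5, a tether, rose (1.29, limma adjusted p = 0.000312), VAMP8, a SNARE, fell (-0.84, limma adjusted p = 0.000753) and 5 were not called.

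Among 11 nutrient kinase genes, 9 were tested, 2 rose, 4 fell and 3 were not called. RHEB, the activator of mTORC1, fell from 65.3 ± 1.78 to 35.9 ± 3.28 FPKM (-0.85, limma adjusted p = 0.000385). RPTOR (-0.35, limma adjusted p = 0.0144) and MLST8 (-0.51, limma adjusted p = 0.0179), subunits of mTORC1, fell, and both calls were lost under some alternatives, with adjusted p up to 0.0976 and 0.532. MTOR (0.55) and the AMPK subunit PRKAA1 (0.46) rose and AKT1S1 (-0.37) fell. These 3 calls were also lost under some alternatives, and the genes were named after their values were seen.

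Of 12 nuclear genes that mark mitochondrial mass, 11 were tested, TFAM rose (0.47, limma adjusted p = 0.0162), COX4I1 fell (-0.30, limma adjusted p = 0.0385) and 9 were not called, with a median fold change of -0.08. Both calls were lost under some alternatives. Genes of the mitochondrial chromosome took 12.9%, 7.5% and 6.96% of summed FPKM in sgControl replicates 1 to 3 and 6.01%, 6.72% and 6.44% in sgPLOD2. The 37 tested genes of that chromosome had a median fold change of -0.83, from the fit that included every library. That median counts each gene equally, whatever its length or level, so it is not a change in their summed FPKM. In the share of FPKM, the first sgControl library stood apart from the other 5, and the called members kept their calls without it.

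Fold changes of tested genes within 5 Mb on each side were compared with those of the 9 genes, because fold changes varied along chromosomes. Around BNIP3, 14 tested neighbours had a median of -0.53, with 9 lower and 2 higher, while BNIP3 itself was at 0.63. Near ULK1, 17 neighbours had a median of -0.31, with 7 lower and 1 higher, the same sign as ULK1. Around OPTN, 30 neighbours had a median of 0.42, with OPTN at -0.05. Neighbours of BNIP3L (53 genes), PINK1 (75) and SQSTM1 (52) had medians of 0.04, -0.10 and -0.01. With the median of each whole chromosome removed, all 5 called genes kept their calls, but that setting does not remove the medians of these windows. For ULK1 the chromosome median was -0.08, smaller in size than that of its neighbours. Whether the fall of ULK1 goes beyond that of its neighbours was not tested.

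The authors' deposited table, made from the same libraries, also had 3 of the 9 genes higher and 2 lower at an adjusted p of 0.05, a threshold passed by 35.5% of its 22870 genes with an adjusted p. Its log2 fold changes were 0.58 for BNIP3, 0.87 for BNIP3L, 0.69 for PINK1, -0.98 for SQSTM1 and -0.81 for ULK1. For GABARAPL1 the authors' deposited table gave -0.75 with a standard error of 0.67.

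Likeness over the 6 libraries was taken as Pearson's r of log2(FPKM + 1), as a description, for the genes with the largest rise and the largest fall. The genes most like BNIP3L were KHDRBS3 (r = 0.9998), NEMF (r = 0.999) and MAPK1IP1L (r = 0.998). For SQSTM1 they were GRK5 (r = 0.999), RNF19B (r = 0.998) and CHKB (r = 0.998). With 6 libraries in 2 separated groups, 82 genes exceeded 0.99 for BNIP3L and 31 for SQSTM1.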

How the data were processed

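RNA was sequenced from 6 libraries of 786-O cells, 3 sgControl and 3 sgPLOD2, grouped by their titles. The submitters' processing notes name CASAVA, HISAT2 2.1.0, StringTie 1.3.4 and GRCh38, with no roles. For the counting tool and strand setting, nothing is stated. Per the file headers, the authors deposited 1 FPKM value per gene and library. The deposited table also held the authors' own comparison, per the file headers: a mean normalized count (a signal, not raw counts), log2 fold changes and their errors, a score (not used) and p-values.

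Deposited mean counts matched FPKM times GENCODE 29 exon length within 1% for 96.7% of 10465 genes, which gave implied totals of 131 M to 147 M reads per library. Recovered low values were whole for only 15.6%, so no count test was run and no counting interval is given.

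Deposited FPKM was tested on log2(FPKM + 1) by lmFit and eBayes with trend (limma 3.58.1, R 4.3.3), 2-sided, after a minimum mean of 1 FPKM. The scale understates changes of weak genes. PLOD2 was also compared by an exact permutation test (scipy 1.17.1). The limma fit was checked on simulated data in which few genes were changed, unlike this comparison, in which 52.9% of tested genes were called. Alternatives were 2 pseudocounts, 2 filters, 3 scalings, 2 variance models, a replicate block, subtraction of chromosome medians, adjustment for GC content and length as a smooth trend (mgcv 1.9.3), and each library left out. Both were annotated for 99.9% of tested genes.

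The 9 genes and the pathway lists were chosen with earlier results of these data known. Genes named are the 9, PLOD2, the 3 genes with the smallest adjusted p of each list, and their direct partners. Others are said to have been named after their values were seen. Positions are from the deposited table, strands and exon overlaps from GENCODE 29. Promoter sequences were not used here for PINK1 and BNIP3L, and no protein sequences were used. Some genes of these lists are not reported here.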

Additional observations from a re-analysis of the deposited data

How the results depend on the processing

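Across 18 alternatives (17 where a gene was below 5 FPKM), BNIP3, BNIP3L, PINK1, SQSTM1 and ULK1 kept direction and call wherever they were tested. Fold changes ranged from 0.51 to 0.79 for BNIP3, from 0.68 to 1.06 for BNIP3L, from 0.68 to 0.90 for PINK1, from -0.99 to -0.74 for SQSTM1 and from -0.71 to -0.30 for ULK1. ULK1 was not tested at a minimum of 5 FPKM, which left 1 member lower, 3010 genes called, 1361 of them higher, and 33 pathway genes, 10 of them higher. With no filter, 6979 of 28706 genes were called. Rescaling to TPM left 16 pathway genes lower, moved the median of all genes from 0.06 to 0.20, and moved the share of calls that were higher from 55.7% to 66.8%. Median-of-ratios scaling and quantile normalization each gave 49.9%, and the 5 FPKM minimum gave 45.2%. Leaving out 1 library at a time gave 4179 to 5853 genes called and 17 to 26 pathway genes higher (17 without sgPLOD2 replicate 2), and PLOD2 stayed between -1.81 and -1.47. Of 51 called pathway genes, 24 kept their call wherever tested and 27 lost it at least once.

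The sign turned in 12 genes, and the cause was not tested. OPTN was 0.081 under TPM, 0.036 under quantile normalization and -0.088 to 0.0048 with 1 library left out. Its larger departures kept the sign: -0.22 (limma adjusted p = 0.0628) after adjustment for GC content and length and -0.17 with chromosome medians removed. GABARAP was 0.040 under TPM, 0.019 under quantile normalization, 0.0023 without the trend on GC and length, and -0.19 to 0.038 with 1 library left out. TBK1 was 0.014 under TPM and -0.21 to 0.068 with 1 library left out. PPTC7 was -0.10 under quantile normalization and -0.17 without the GC trend. With chromosome medians removed, ATG14 was -0.058, ATG2A -0.0051 and PARL -0.083. Without the GC trend, KEAP1 was 0.078, CSNK2A1 -0.0061 and CTSD 0.16. With 1 library left out, MAP1LC3B ranged from -0.12 to 0.39 and FUNDC1 from -0.067 to 0.26.

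No clear pairing by replicate number was seen, though 3 libraries a group cannot exclude it. Deviations of same-numbered libraries correlated at 0.0135, 0.135 and -0.0491, and not every library correlated best with its own number. With the replicate number as a block, 5319 genes were called and no member's call changed. With 3 libraries a group, spread within a group is estimated from few values, and the 4 uncalled members are not shown to be equal.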

Other observations

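GABARAPL1 and FUNDC1 showed opposite extremes in the same libraries, a pattern noticed after their values were seen and not tested. In sgControl replicate 3, GABARAPL1 had its highest value of 6.88 FPKM and FUNDC1 its lowest of 3.25 FPKM. In sgPLOD2 replicate 2, GABARAPL1 had its lowest value of 1.3 FPKM and FUNDC1 its highest of 6.61 FPKM.

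CA9, a HIF target that marks clear cell carcinoma, was listed at 0 in all 3 sgControl libraries and at 0.317, 0.368 and 0.285 FPKM in the sgPLOD2 libraries, below the filter. NDUFA4L2, another such marker, was at 0.143 to 0.22 FPKM in sgControl and 0.027 to 0.087 FPKM in sgPLOD2.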
